A study of Mus musculus with 12 samples.

Results

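The genes described here encode the enzymes that cut, shed and crosslink the extracellular matrix and the proteins that hold those enzymes back. They were taken from the expression matrix by name, as protein-coding genes of 7 families: matrix metalloproteinases (Mmp), ADAM and ADAMTS proteases, ADAMTS-like proteins (Adamtsl), tissue inhibitors of metalloproteinases (Timp), lysyl oxidases (Lox and Loxl) and HTRA serine proteases. The matrix listed 86 such genes among 28948 genes. Of these, 32 reached at least 1 RPKM (a read density that corrects for exon length and library depth) in at least 3 of the 12 libraries, and they were the ones tested, among 11245 genes of the whole matrix that passed the same filter.

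All libraries came from 3T3-L1 cells, a Swiss mouse preadipocyte line that turns into fat cells in culture. They were differentiated with insulin (5 µg/ml), the glitazone troglitazone (10 µM), dexamethasone (1 µM) and isobutylmethylxanthine (0.5 mM), then kept in insulin alone from day 4, and plain growth medium was used from day 6. The 4 groups of 3 libraries were adipocytes with an empty vector, adipocytes with what the labels call constituent overexpression of FOXP1, adipocytes with a scrambled hairpin (shRNA) and adipocytes with a hairpin against Foxp1. Foxp1 is a forkhead transcription factor, and the series title names it as a regulator of aerobic glycolysis in adipocytes and myocytes. The day of harvest, the number of clones or hairpins and what separates a replicate from the next are not given in the sources used here, so p-values measure only the spread between these libraries, which may be technical.

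A fat cell sits in a basement membrane and a collagen mesh that has to be remodelled as the cell fills with lipid. Metalloproteinases and ADAMTS proteases cut collagens, laminins and proteoglycans, TIMPs block their catalytic site, and ADAMs release growth factors, receptors and cytokines from the cell surface. Lysyl oxidases act the other way by oxidising lysines of collagen and elastin so that the fibres crosslink, and HTRA proteases cut matrix and signalling proteins outside the cell or, in the case of HTRA2, misfolded proteins in mitochondria.

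Foxp1 itself followed the labels, with 1.80 ± 0.0349 RPKM (mean ± SD, n = 3, as for every value with ± below) in the empty-vector libraries, 6.56 ± 0.71 in the overexpression libraries, 2.18 ± 0.0624 in the scrambled-hairpin libraries and 1.11 ± 0.0335 in the knockdown libraries. Between 35252019 and 38450002 reads per library had been given to genes, and 1 read in 1 kb of exon made 0.02601 to 0.02837 RPKM. The share of reads from the mitochondrial genome was 13.11% in overexpression replicate 3, against 9.992% and 9.648% in replicates 1 and 2. It was 8.605% to 9.352% with the empty vector, 4.795% to 5.69% with the scrambled hairpin and 5.973% to 6.82% with knockdown. The summed level of 8 fat cell markers differed between groups, at 7551 to 7694 RPKM with the empty vector, 3428 to 3650 with overexpression, 6304 to 6503 with the scrambled hairpin and 8690 to 9233 with knockdown. With overexpression all 8 fell, at a median log2 fold change of -0.64. With knockdown 5 rose and 2 fell, and abundant genes carry the rise of the sum: Cidec (0.79) and Adipoq (0.64) rose on the log2 scale, while the adipogenic factors Pparg (-0.11, adjusted p = 0.0302) and Cebpa (-0.24, adjusted p = 0.000646) fell. The 8 fibroblast or preadipocyte markers totalled 149.5 to 163.7, 144.9 to 159.7, 156.2 to 182.1 and 165.6 to 208.1 RPKM in the same order, and 6 of 8 were tested. With overexpression Ly6a (-1.05) and Pdgfra (-0.30) fell, while Dlk1 (0.56), Thy1 (0.53) and Pdgfrb (0.35) rose. With knockdown S100a4 (1.22) and Pdgfrb (0.22) rose, while Ly6a (-0.32) and Thy1 (-0.34) fell. Of 7 macrophage markers 1 (Cd68) was tested, with sums of 2.972 to 5.953, and 0 of 5 endothelial markers were tested, with sums of at most 0.5831 RPKM. In bulk RNA, fewer cells of a type and less RNA per cell cannot be told apart, and the part of cell composition in the results below was not tested.

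Most of the described genes were well expressed. Their median level over the 12 libraries was 10.49 RPKM, against 6.886 for all genes tested, and 30 of the 32 were at or above 1 RPKM in every library. Mmp2, the gelatinase A gene, was the most abundant at a mean of 202.8 RPKM, above 98.39% of genes tested. Lox, the founding lysyl oxidase, followed at 136.6, then Timp2 at 70.41, Loxl1 at 63.62, Adam15 at 51.93 and Mmp19 at 45.3 RPKM. The lowest were Adam19 at 1.464, Adamts14 at 1.277 and Mmp15 at 0.5976 RPKM. RPKM divides by gene length, so these levels can be set against each other. The plot of every library's level sets the genes out by family.

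**Figure D1:**
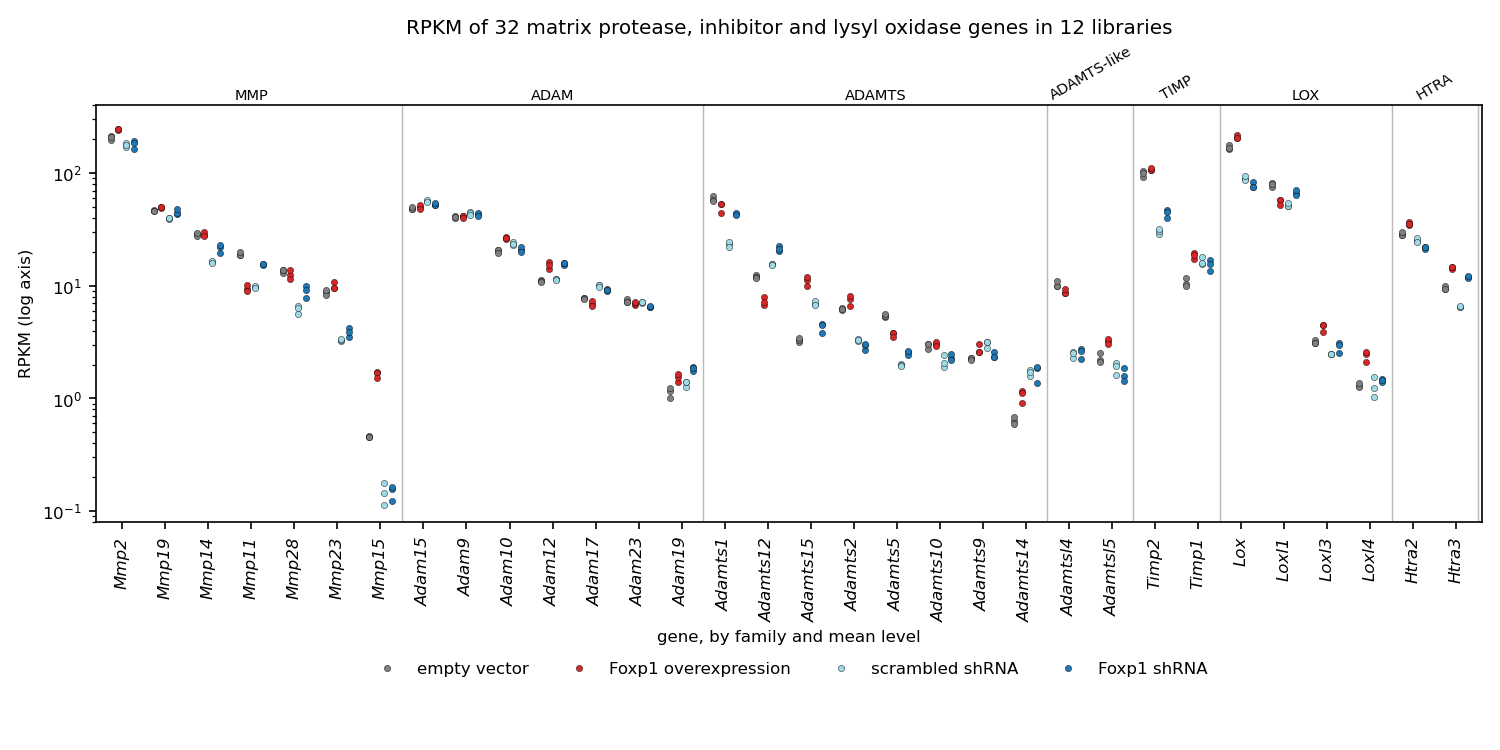
RPKM (log axis) of the 32 described genes in each of the 12 libraries (points, colour by group), by family and, within a family, by mean level. Levels run from Mmp2, with a mean of 202.8, down to Mmp15, whose overexpression libraries stand above its other libraries.

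The share of listed genes that passed the filter differed between families. Described were 7 of 21 Mmp genes, 7 of 30 Adam, 8 of 17 Adamts, 2 of 5 Adamtsl, 2 of 4 Timp, 4 of 5 lysyl oxidase and 2 of 4 Htra genes. These totals count the genes that the matrix lists and may fall short of whole families. Of the 54 genes left, 34 stayed under 0.1 RPKM in every library. The Mmp cluster on chromosome 9 (GRCm38, chr9:7272514-7674979) holds 8 of the listed genes, and 0 of them passed the filter. Among them are the collagenases Mmp8 and Mmp13 and the stromelysins Mmp3 and Mmp10. The highest value in that cluster was 1.047 RPKM, for Mmp13 in 1 knockdown library. Mmp9 (gelatinase B) reached at most 0.1915 RPKM, Loxl2 0.4347, Htra1 0.3781 and Htra4 0.4276.

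At the edge of the filter, Mmp15 passed with its 3 overexpression libraries alone and Adamts14 with 8 libraries. Just outside were Mmp13, Adamts4, with a highest value of 0.98 RPKM, Adamts7 (0.9319), Timp3 (0.9275) and Timp4 (0.8691). Timp3, the inhibitor that binds to the matrix, had 0.2978, 0.2044 and 0.2926 RPKM with the empty vector and 0.9252, 0.7519 and 0.9275 with overexpression. In the scrambled-hairpin and knockdown libraries it lay between 0.1268 and 0.2226. Timp4, the inhibitor best known from heart and fat, had 0.398, 0.4192 and 0.3706 RPKM with the empty vector against 0.8691, 0.8634 and 0.8067 with overexpression. Mmp13 had 0.3944, 0.36 and 0.3502 RPKM with the empty vector, 0.142, 0.1527 and 0.122 under overexpression, 0.6176, 0.4794 and 0.8296 with the scrambled hairpin and 1.047, 0.8223 and 0.8952 with knockdown. These genes were not tested.

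Overexpression changed 25 of the 32 genes (78.1%), 18 upward (56.2%) and 7 downward (21.9%), where 51.4% of all genes tested changed, 31% upward and 20.3% downward. A change here means an adjusted p under 0.05 (limma on log2(RPKM + 1), Benjamini-Hochberg over all 11245 genes). The downward share is near that of all genes, and the upward share is above it. The median log2 fold change was 0.18 for the 32 genes and 0.04 for all genes. Because Mmp15 entered through its overexpression libraries alone, its rise was fixed in part by the filter: among the other 31 genes 24 changed, 17 upward. With a ratio of means of at least 1.5 as well, 6 genes rose, or 5 without Mmp15, and 2 fell, against 7.32% and 6.18% of all genes. With median-ratio scaling 16 of the 32 rose and 8 fell, and 2944 and 2798 genes of the whole table. With TPM scaling 14 rose and 8 fell, and 2419 and 2565 of the whole table. Without overexpression replicate 3, 24 of the 32 changed, 17 upward and 7 downward.

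Knockdown changed 21 of the 32 (65.6%), 14 upward (43.8%) and 7 downward (21.9%), where 49.7% of all genes changed, 18.7% upward and 31% downward. Among the 32 genes more rose than fell, and in the whole table more fell than rose. Median log2 fold changes were 0.06 and -0.04. With median-ratio scaling of the libraries, 14 rose and 4 fell, while the whole table split into 2785 up and 2787 down. With a ratio of at least 1.5, 3 genes rose and 1 fell, against 3.42% and 3.89% of all genes.

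The responses were compared directly by the difference between them, overexpression minus knockdown. It passed for 21 of the 32 genes, 12 upward and 9 downward, where 54.9% of all genes passed, 34.6% upward and 20.3% downward. The 12 include Mmp15, which entered through its overexpression libraries alone. With median-ratio scaling the 32 genes split into 11 upward and 11 downward and the whole table into 3002 and 3056. Calls in opposite directions in the comparisons were made for 10 genes (31.2%), against 18.1% of all genes, and calls in the same direction for 7 (21.9%), against 10.5%. Both classes need a call in each comparison, and calls were more common among the 32 genes: 78.1% against 51.4% with overexpression and 65.6% against 49.7% with knockdown. Opposite calls also outnumbered same-direction calls among all genes, at 2035 and 1182, so the shares set neither class apart in the 32 genes. Down with overexpression and up with knockdown were Mmp11, Adamts1, Adamts5, Adamts12 and Loxl1. Up with overexpression and down with knockdown were Adam10, Adamts9, Adamts15, Htra2 and Lox. Up in both were Mmp19, Mmp23, Adam12, Adam19, Loxl3 and Htra3, and down in both was Adam17. Called in neither were Adam9, Adam15 and Adamts10. The plot of the responses against each other shows these classes, with Adamts15 and Mmp11 at opposite corners and Htra3 and Adam12 rising on both axes.

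**Figure D2:**
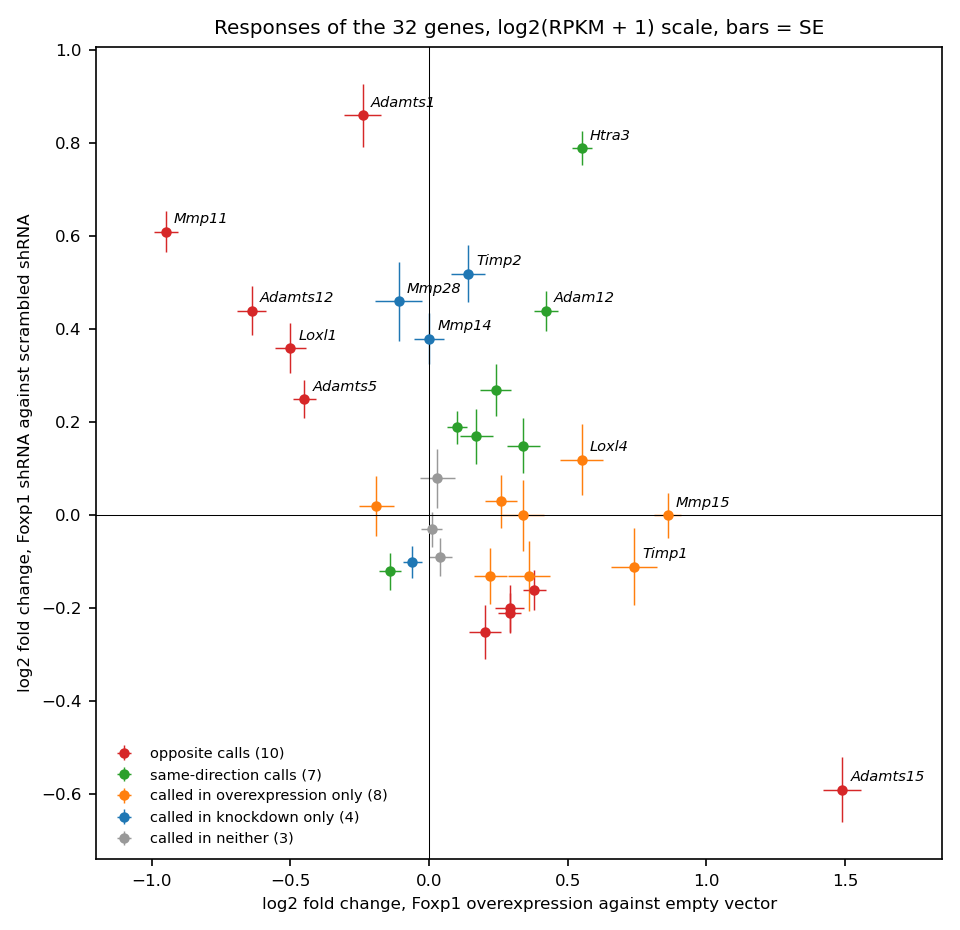
Log2 fold change on the log2(RPKM + 1) scale with overexpression (horizontal) and with knockdown (vertical) for the 32 genes, bars giving the standard error and colour the class of call. Adamts15 lies at 1.49 and -0.59, Mmp11 at -0.95 and 0.61, and Htra3 at 0.55 and 0.79.

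Among metalloproteinases, Mmp11 moved most in opposite directions. Mmp11 (stromelysin-3; GRCm38 chr10:75923222-75936496, minus strand) is a secreted protease that is cut to its active form by furin inside the cell. Its levels were 18.8, 18.6 and 20.01 RPKM with the empty vector and 9.34, 10.1 and 8.93 with overexpression, then 9.86, 9.98 and 9.64 with the scrambled hairpin and 15.6, 15.2 and 15.7 with knockdown. Neither pair of groups overlapped: overexpression libraries were low and knockdown libraries high against their own controls. The log2 fold change was -0.95 (SE 0.044, limma, adjusted p = 3.5e-09) with overexpression and 0.61 (SE 0.044, adjusted p = 8.2e-07) with knockdown, and the difference between them was -1.55 (adjusted p = 1.51e-09). Exons of Mmp11 share 155 bases with Chchd10 on the other strand, 5.58% of its exon length, and whether the authors counted by strand is not given in the sources used here.

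Mmp15 (MT2-MMP; chr8:95352268-95375080, plus strand), a protease anchored in the cell membrane, was low throughout. It measured 0.464, 0.458 and 0.452 RPKM with the empty vector and 1.71, 1.69 and 1.51 with overexpression. The overexpression libraries were all above the controls, 3.58 times on the ratio of means, with a log2 fold change of 0.86 (SE 0.0484, adjusted p = 1.97e-08) on the log2(RPKM + 1) scale, which understates the change of a low gene. Those libraries alone brought Mmp15 past the filter, so its rise and its p-value were fixed in part by the filter. Knockdown gave 0.123, 0.157 and 0.163 against 0.146, 0.179 and 0.113 RPKM in the scrambled-hairpin libraries, and these overlapped (log2 fold change 0.00, SE 0.0484, adjusted p = 0.971). Between 23 and 340 reads per library lay behind these values, the fewest of the 32 genes.

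The sequences before the start sites of Mmp11 and Mmp15 are shown because these Mmp genes moved most with overexpression, and that of Adamts1 because it moved most with knockdown. They are RefSeq promoter windows (GRCm38.p6), the first 200 of the 250 bases before the start, 5′ to 3′ on the gene's strand, in lower case because they hold none of the letters searched. The Mmp11 window stands before a RefSeq start that lies inside the longer span given for the gene above, so the annotations differ in where the gene begins.
Mmp11 (chr10:75932553-75932752, minus strand): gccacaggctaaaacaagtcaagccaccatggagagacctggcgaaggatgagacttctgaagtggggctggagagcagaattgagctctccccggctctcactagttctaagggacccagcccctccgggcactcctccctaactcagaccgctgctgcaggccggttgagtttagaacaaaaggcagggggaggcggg
Mmp15 (chr8:95352046-95352245, plus strand): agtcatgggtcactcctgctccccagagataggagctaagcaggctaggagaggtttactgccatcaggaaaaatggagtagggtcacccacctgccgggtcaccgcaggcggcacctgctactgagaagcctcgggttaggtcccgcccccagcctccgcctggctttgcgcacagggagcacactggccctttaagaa
Adamts1 (chr16:85803164-85803363, minus strand): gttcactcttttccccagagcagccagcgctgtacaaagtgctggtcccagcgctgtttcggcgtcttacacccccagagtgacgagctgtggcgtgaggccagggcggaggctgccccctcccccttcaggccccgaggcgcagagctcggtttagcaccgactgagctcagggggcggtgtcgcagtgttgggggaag

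The windows of 300 bases (250 before to 50 after the start) were searched on both strands for the forkhead letters TGTTTAC and for the AP-1 letters TGAGTCA and TGACTCA, which are each other's reverse complement. RefSeq held 24 windows for 21 of the 32 genes. The forkhead letters occurred in 1 of the 24 (4.17%), against 3.65% of all 32851 windows and 2.44% of the 10667 windows of genes tested. AP-1 letters occurred in 1 of 24, against 5.2% and 3.67%. Both belonged to Adam19, at separate start sites, shown with the motif in capitals and 30 bases in all.
Adam19 forkhead letters, 175 bases before a start (chr11:46054316-46054345, plus strand): gaagacacagtTGTTTACaaacgaatagaa
Adam19 AP-1 letters, 131 bases before another start (chr11:46055842-46055871, plus strand): tgtccttcaccTGAGTCAgcgatgctcccg
The shares lie near those of the other windows, and a match is a run of letters, not a site shown to be bound.

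Other metalloproteinases moved less. Mmp2, the abundant gelatinase (chr8:92827291-92853420, plus strand), had 212, 196 and 210.1 RPKM with the empty vector and 246, 243 and 248 with overexpression. These groups did not overlap, and the log2 fold change was 0.26 (SE 0.0572, adjusted p = 0.00263). In the scrambled-hairpin libraries Mmp2 stood at 169.7, 184 and 179 RPKM and in the knockdown libraries at 194, 165 and 186, overlapping groups (log2 fold change 0.03, adjusted p = 0.673). The difference between the responses was 0.22 (adjusted p = 0.0333), and it no longer passed without empty-vector replicate 2 (adjusted p = 0.0864), without overexpression replicate 1 (0.0515), without scrambled-hairpin replicate 2 (0.0791) or 3 (0.0634) or without knockdown replicate 2 (0.0639), nor with median-ratio scaling (0.222).

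Mmp14 (MT1-MMP; chr14:54431612-54445364, plus strand), the membrane protease that activates the MMP2 precursor together with TIMP2, rose with knockdown. Its levels were 29.0, 27.96 and 29.5 RPKM with the empty vector and 28.1, 30.4 and 27.8 with overexpression, overlapping groups (log2 fold change -0.00, SE 0.0554, adjusted p = 0.956). They were 16.1, 16.7 and 15.8 with the scrambled hairpin and 19.6, 21.9 and 23.1 with knockdown, where all knockdown libraries were higher (log2 fold change 0.38, SE 0.0554, adjusted p = 0.000132). The difference between the responses was -0.39 (adjusted p = 0.00118). Mmp28 (epilysin; chr11:83440768-83463071, minus strand) had the same pattern of calls. It measured 13.1, 14.0 and 13.8 RPKM with the empty vector, 12.4, 13.8 and 11.5 under overexpression, 6.62, 6.39 and 5.63 with the scrambled hairpin and 7.72, 9.94 and 9.22 with knockdown. Knockdown libraries stood above their controls without overlap (log2 fold change 0.46, SE 0.084, adjusted p = 0.000709), while overexpression libraries overlapped theirs (-0.11, adjusted p = 0.281). Exons of Mmp28 share 466 bases, 12% of its exon length, with 1700020L24Rik on the other strand.

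Mmp19 and Mmp23 rose slightly in both comparisons. The overexpression call of Mmp19 and both calls of Mmp23 depended on single libraries and on the scaling. Mmp19 (chr10:128790910-128800824, plus strand), a protease of basement membrane proteins, had 47.0, 45.8 and 46.5 RPKM with the empty vector against 49.9, 49.0 and 50.3 in the overexpression libraries, a log2 fold change of 0.10 (adjusted p = 0.0363), and 39.3, 39.8 and 39.9 with the scrambled hairpin against 43.9, 44.4 and 47.7 with knockdown (0.19, adjusted p = 0.000993). Groups did not overlap in either comparison. The overexpression call was lost without any of the empty-vector replicates 1, 2 and 3 (adjusted p = 0.0587, 0.111 and 0.0829), without overexpression replicate 1 (0.0727) or 3 (0.0599), without scrambled-hairpin replicate 1 (0.0518), with median-ratio scaling (0.243) and with TPM scaling (0.381). Tmem198b shares 789 exon bases with Mmp19, 22.3% of its exon length, on the other strand.

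Mmp23 (chr4:155650655-155653384, minus strand), a small membrane-bound member of the family, had 8.84, 8.36 and 9.21 RPKM with the empty vector, 10.8, 9.64 and 9.60 under overexpression, 3.27, 3.32 and 3.38 with the scrambled hairpin and 4.24, 3.51 and 3.91 with knockdown. Both treated groups stood above their controls without overlap, with log2 fold changes of 0.17 and 0.17 (adjusted p = 0.0323 and 0.0274). The overexpression call was lost without empty-vector replicate 1 (0.068) or 2 (0.123) or overexpression replicate 1 (0.132). It was also lost with median-ratio scaling (0.0825), with TPM scaling (0.123) and without a filter on low values (0.0741). The knockdown call was lost without scrambled-hairpin replicate 1 (0.0768) or 2 (0.064) or knockdown replicate 1 (0.119) or 3 (0.069), with TPM scaling (0.0563) and without a filter on low values (0.0725). In all, 4 of 7 Mmp genes rose and 1 fell with overexpression, against 31% and 20.3% of all genes, and 5 rose and 0 fell with knockdown, against 18.7% and 31%. Without Mmp15, whose passing of the filter rested on its overexpression libraries, 3 of 6 rose with overexpression. The summed level of all Mmp genes listed was 324.7 ± 11.08 RPKM with the empty vector, 359 ± 0.4702 with overexpression, 254.4 ± 7.483 with the scrambled hairpin and 278.9 ± 14.56 with knockdown, and Mmp2 made up most of it.

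The described inhibitors each answered a different manipulation. Timp1 (chrX:20870166-20874735, plus strand), a secreted inhibitor that is commonly induced in injured and inflamed tissue, had 11.8, 10.3 and 10.0 RPKM with the empty vector and 19.4, 17.5 and 18.7 with overexpression. All overexpression libraries were higher, 1.73 times on the ratio of means (log2 fold change 0.74, SE 0.0828, adjusted p = 1.08e-05). Scrambled-hairpin libraries had 15.6, 16.1 and 18.2 RPKM and knockdown libraries 16.9, 13.5 and 15.5, overlapping groups (log2 fold change -0.11, SE 0.0828, adjusted p = 0.271).

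Timp2 (chr11:118301069-118355740, minus strand), which both inhibits metalloproteinases and serves as the bridge between MMP14 and the MMP2 precursor, had 104, 92.7 and 99.3 RPKM with the empty vector and 107, 107 and 111 with overexpression. The groups did not overlap but the test was not passed (log2 fold change 0.14, SE 0.0605, adjusted p = 0.0733). It was passed without knockdown replicate 2 (adjusted p = 0.0376), and in 2 settings chosen after the data were seen: with reads outside the mitochondrial genome as the total (0.0415) and with voom on recovered reads (0.0464). Timp2 stood at 28.8, 30.6 and 31.9 RPKM with the scrambled hairpin and at 47.2, 40.2 and 44.8 with knockdown. All knockdown libraries were higher (log2 fold change 0.52, SE 0.0605, adjusted p = 2.6e-05). The difference between the responses was 0.85 (adjusted p = 6.04e-05) for Timp1 and -0.38 (adjusted p = 0.00243) for Timp2.

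The plot of 12 selected genes shows these patterns by library, with the inhibitors beside proteases that moved. The genes in it were picked among those with large changes, and Lox was added. Loxl4 and Adamts5, also among the larger changes with overexpression, are not in it.

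**Figure D3:**
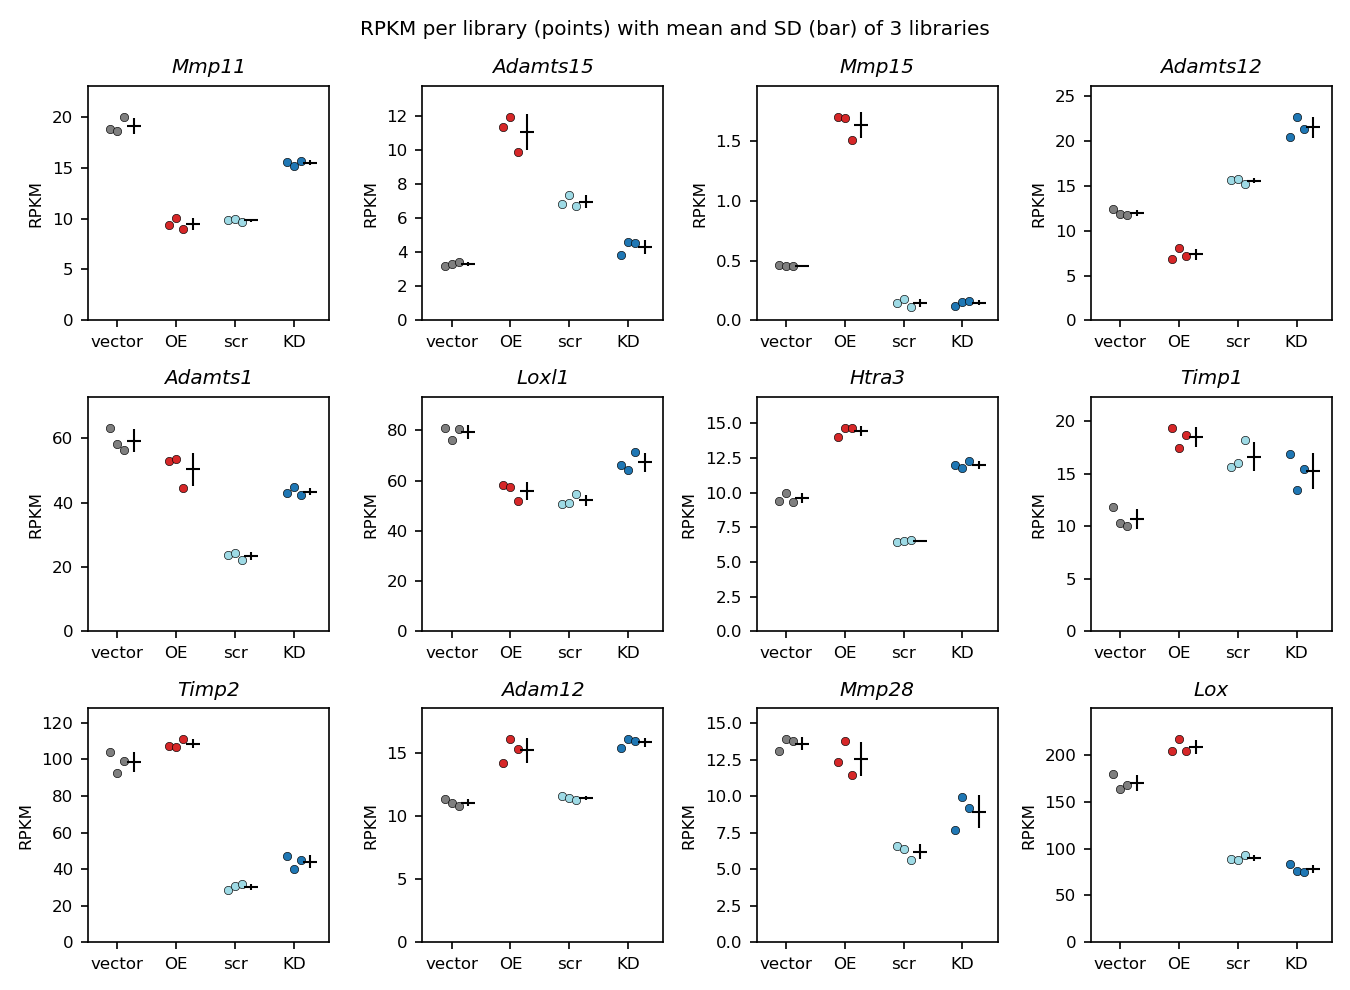
RPKM of 12 genes in each library (points; vector, empty vector; OE, Foxp1 overexpression; scr, scrambled hairpin; KD, Foxp1 knockdown) with the mean and SD of 3 libraries (cross and bar), each axis starting at 0. Mmp11 falls from 19.1 to 9.46 with overexpression and rises from 9.82 to 15.5 with knockdown, and Adamts15 does the reverse, from 3.30 to 11.1 and from 6.99 to 4.33.

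Among the ADAM sheddases, Adam10 and Adam17 moved in opposite directions with overexpression, and both were called down with knockdown. Adam10 (chr9:70678997-70780229, plus strand), which releases the Notch ectodomain and many other surface proteins, had 20.6, 20.7 and 19.7 RPKM with the empty vector and 26.1, 27.3 and 26.9 with overexpression, then 24.4, 22.9 and 23.7 with the scrambled hairpin and 20.9, 22.3 and 20.02 with knockdown. Overexpression libraries were all higher than their controls (log2 fold change 0.38, SE 0.0426, adjusted p = 1.18e-05) and knockdown libraries all lower (-0.16, SE 0.0426, adjusted p = 0.00766). The knockdown call was lost with median-ratio scaling (adjusted p = 0.0651). The difference between the responses was 0.54 (adjusted p = 1.09e-05).

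Adam17 (chr12:21323509-21373632, minus strand), the enzyme that sheds TNF and ligands of the EGF receptor, had 7.76, 7.78 and 7.69 RPKM with the empty vector, 6.86, 7.37 and 6.61 under overexpression, 10.2, 10.1 and 9.71 with the scrambled hairpin and 8.96, 9.39 and 9.15 with knockdown. Both treated groups lay below their controls without overlap. The log2 fold changes were -0.14 (SE 0.0398, adjusted p = 0.0116) and -0.12 (SE 0.0398, adjusted p = 0.0302), and their difference was -0.02 (adjusted p = 0.74). The knockdown call was lost without scrambled-hairpin replicate 1 (0.107) or 2 (0.0776), without knockdown replicate 1 (0.0966) or 3 (0.0691), and with median-ratio scaling (0.133). Exons of Adam17 share 311 bases, 4.35% of its exon length, with Iah1 on the other strand.

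Adam12 and Adam19, related proteases known from growth-factor shedding and cell fusion, rose in both comparisons. Adam12 (chr7:133883199-134232146, minus strand) had 11.3, 11.1 and 10.8 RPKM with the empty vector, 14.2, 16.1 and 15.3 under overexpression, 11.6, 11.4 and 11.2 with the scrambled hairpin and 15.4, 16.1 and 16.0 with knockdown. Neither treated group overlapped its controls, and the control groups overlapped each other. Log2 fold changes were 0.42 (SE 0.0433, adjusted p = 4.73e-06) with overexpression and 0.44 (SE 0.0433, adjusted p = 8.01e-06) with knockdown. Adam19 (chr11:46055992-46147343, plus strand) was near the filter, with 1.17, 1.00 and 1.24 RPKM with the empty vector, 1.39, 1.54 and 1.65 under overexpression, 1.27, 1.41 and 1.39 with the scrambled hairpin and 1.74, 1.90 and 1.87 with knockdown. It was higher in all treated libraries than in their controls (log2 fold changes 0.24 and 0.27, adjusted p = 0.00309 and 0.00169).

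The other ADAM genes moved little. Adam23 (chr1:63445891-63596276, plus strand), a cell-adhesion member of the family without protease activity, had 7.01, 7.18 and 7.16 RPKM with the scrambled hairpin and 6.49, 6.55 and 6.65 with knockdown (log2 fold change -0.10, SE 0.0344, adjusted p = 0.0261). Knockdown libraries were lower without overlap. That call was lost without scrambled-hairpin replicate 2 (adjusted p = 0.0731) or 3 (0.0668), without knockdown replicate 1 (0.0739) or 2 (0.0532), and with median-ratio scaling (0.255). Adam23 with overexpression gave -0.06 (adjusted p = 0.143), which passed with median-ratio scaling (-0.10, 0.0492) and with TPM scaling (-0.11, 0.0408). Adam15 and Adam9, the most abundant ADAM genes, were called in neither comparison. Adam15 had 48.4 ± 1.29 and 50 ± 2.43 RPKM with the empty vector and overexpression, and 56.4 ± 1.21 and 52.9 ± 1.40 with the scrambled hairpin and knockdown. Its knockdown p of 0.0879 became 0.0407 without overexpression replicate 3, and the p of the difference between its responses, 0.0676, became 0.0132. Adam9 had 40.8 ± 0.768, 41.0 ± 1.09, 44.2 ± 1.38 and 43.2 ± 1.42 RPKM in the same order.

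Among ADAMTS proteases, 4 of 8 rose and 3 fell with overexpression, and 3 rose and 2 fell with knockdown, where 31% and 20.3%, and 18.7% and 31%, of all genes did. Those that fell with overexpression (Adamts1, Adamts5 and Adamts12) were the ones that rose with knockdown. Adamts15 (chr9:30899155-30922452, minus strand), a protease of aggrecan and versican, showed the largest log2 fold change of the 32 genes with overexpression on the log2(RPKM + 1) scale, while the ratio of means was larger for Mmp15. Its levels were 3.18, 3.31 and 3.42 RPKM with the empty vector and 11.4, 11.99 and 9.93 with overexpression, a ratio of 3.36, and 6.86, 7.40 and 6.71 with the scrambled hairpin and 3.84, 4.61 and 4.53 with knockdown. Overexpression libraries were all high and knockdown libraries all low against their controls. Log2 fold changes were 1.49 (SE 0.0696, adjusted p = 3.69e-09) and -0.59 (SE 0.0696, adjusted p = 2.98e-05), and their difference was 2.07 (adjusted p = 6.22e-09). Adamts8, which lies 20109 bases from it, reached at most 0.106 RPKM.

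Adamts1 and Adamts5, proteoglycan-cutting proteases, are neighbours on chromosome 16 (chr16:85793827-85803113 and chr16:85856173-85901828, both on the minus strand), 53059 bases apart. Adamts1 had 63.3, 58.1 and 56.4 RPKM with the empty vector, 52.9, 53.5 and 44.4 under overexpression, 23.7, 24.4 and 22.2 with the scrambled hairpin and 43.1, 44.7 and 42.4 with knockdown. Adamts5 had 5.34, 5.36 and 5.59 RPKM, then 3.78, 3.84 and 3.51, then 2.02, 1.99 and 1.95, and then 2.58, 2.44 and 2.65 in the same order of groups. For both genes overexpression libraries were all lower and knockdown libraries all higher than their controls.

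With overexpression, the log2 fold change was -0.24 (SE 0.0677, adjusted p = 0.0115) for Adamts1 and -0.45 (SE 0.0406, adjusted p = 1.54e-06) for Adamts5. The Adamts1 call was lost without empty-vector replicate 1 (adjusted p = 0.055). With knockdown, Adamts1 rose by 0.86 on the log2 scale (SE 0.0677, adjusted p = 1.42e-06), the largest change of the 32 genes in that comparison, and Adamts5 by 0.25 (SE 0.0406, adjusted p = 0.000294). The differences between responses were -1.10 (adjusted p = 1.2e-06) and -0.70 (adjusted p = 6.78e-07).

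Adamts12 (chr15:11064790-11349231, plus strand), a protease of cartilage matrix proteins, had 12.4, 11.9 and 11.7 RPKM with the empty vector and 6.83, 8.02 and 7.21 with overexpression. Scrambled-hairpin libraries had 15.7, 15.7 and 15.2 RPKM and knockdown libraries 20.4, 22.7 and 21.3. Overexpression libraries were low and knockdown libraries high against their controls, without overlap, at log2 fold changes of -0.64 (SE 0.0527, adjusted p = 6.38e-07) and 0.44 (SE 0.0527, adjusted p = 3.11e-05). Their difference was -1.08 (adjusted p = 1.51e-07).

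Adamts2 and Adamts14, which remove the amino-terminal propeptide of fibrillar procollagens, rose with overexpression. Adamts2 (chr11:50602084-50807573, plus strand) had 6.33, 6.14 and 6.21 RPKM with the empty vector and 7.59, 8.16 and 6.59 with overexpression (log2 fold change 0.22, SE 0.0595, adjusted p = 0.00822), a call lost with TPM scaling (0.17, adjusted p = 0.0701). It had 3.30 ± 0.0534 and 2.92 ± 0.178 RPKM with the scrambled hairpin and knockdown (adjusted p = 0.082), which passed without overexpression replicate 2 (0.0456) or 3 (0.0172). Adamts14 (chr10:61197112-61273438, minus strand) had 0.629, 0.681 and 0.595 RPKM against 1.17, 1.12 and 0.92, a log2 fold change of 0.34 (SE 0.076, adjusted p = 0.00259), and 1.69 ± 0.106 and 1.71 ± 0.294 RPKM with the scrambled hairpin and knockdown (adjusted p = 0.979). Overexpression libraries of both genes were above their controls without overlap.

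Adamts9 (chr6:92772699-92943492, minus strand), a proteoglycanase, had 2.28, 2.29 and 2.19 RPKM with the empty vector and 2.57, 3.04 and 2.59 with overexpression (log2 fold change 0.20, adjusted p = 0.0133). Scrambled-hairpin and knockdown libraries had 3.16, 3.17 and 2.82 and 2.32, 2.61 and 2.31 RPKM (-0.25, adjusted p = 0.0037). The groups did not overlap in either comparison. The overexpression call was lost without overexpression replicate 2 (adjusted p = 0.0589) and with TPM scaling (0.0818). Adamts10 (chr17:33524204-33553782), a protease of the fibrillin network, had 2.96 ± 0.180, 3.04 ± 0.141, 2.14 ± 0.270 and 2.32 ± 0.166 RPKM in the 4 groups and was called in neither comparison.

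Of the ADAMTS-like proteins, which lack a protease domain, Adamtsl4 (chr3:95676201-95687917, minus strand) binds fibrillin-1 and fell with overexpression. It had 9.94, 9.91 and 11.1 RPKM with the empty vector and 8.66, 8.57 and 9.46 with overexpression (log2 fold change -0.19, SE 0.0645, adjusted p = 0.0256). Overexpression libraries were lower without overlap, but the call was lost without empty-vector replicate 3 (adjusted p = 0.113) or overexpression replicate 1 (0.0739) or 2 (0.0837), without a filter on low values (0.0652) and with reads outside the mitochondrial genome as the total (0.0581). Adamtsl5 (chr10:80339110-80348412, minus strand) rose from 2.52, 2.19 and 2.12 to 3.21, 3.38 and 3.04 RPKM (log2 fold change 0.36, SE 0.0756, adjusted p = 0.00159). With knockdown neither passed, at 0.02 (adjusted p = 0.77) and -0.13 (adjusted p = 0.191). The difference between responses for Adamtsl4 was -0.22 (adjusted p = 0.0618), which passed without overexpression replicate 3 (0.0302) or knockdown replicate 2 (0.0136).

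All 4 described lysyl oxidases changed with overexpression, where 51.4% of all genes tested did, and Lox and Loxl1 moved in opposite directions. Lox had 179.6, 163.0 and 168 RPKM with the empty vector and 204, 217 and 204 with overexpression, then 88.7, 87.5 and 93.4 with the scrambled hairpin and 83.3, 76.0 and 75.0 with knockdown. Overexpression libraries were all higher (log2 fold change 0.29, SE 0.0513, adjusted p = 0.000444) and knockdown libraries all lower (-0.20, SE 0.0513, adjusted p = 0.00625) than their controls. Loxl1 (chr9:58287738-58313186, minus strand), the member best known for elastic fibres, had 81.1, 76.1 and 80.5 RPKM with the empty vector and 58.3, 57.5 and 51.9 with overexpression, then 50.6, 51.1 and 54.6 with the scrambled hairpin and 66.4, 64.1 and 71.3 with knockdown. Here overexpression libraries were all lower (-0.50, SE 0.0542, adjusted p = 8.47e-06) and knockdown libraries all higher (0.36, SE 0.0542, adjusted p = 0.000173). The differences between responses were 0.49 (adjusted p = 0.000105) for Lox and -0.86 (adjusted p = 1.48e-06) for Loxl1. Summed over the 5 lysyl oxidase genes, levels were 253.9 ± 10.94, 271.3 ± 9.918, 146.1 ± 5.067 and 150 ± 5.011 RPKM in the 4 groups, closer together within each pair than Lox or Loxl1 alone.

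Loxl4 (chr19:42593982-42612813, minus strand) had 1.29, 1.27 and 1.36 RPKM with the empty vector and 2.47, 2.60 and 2.102 with overexpression. All overexpression libraries were higher, 1.83 times on the ratio of means (log2 fold change 0.55, SE 0.0762, adjusted p = 6.64e-05). Scrambled-hairpin and knockdown libraries had 1.25, 1.54 and 1.02 and 1.40, 1.496 and 1.46 RPKM and overlapped (0.12, adjusted p = 0.227), a comparison that passed without scrambled-hairpin replicate 2 (0.20, adjusted p = 0.0357). Loxl3 (chr6:83034173-83052562, plus strand) had 3.30, 3.11 and 3.13 RPKM with the empty vector and 4.53, 4.48 and 3.88 with overexpression (log2 fold change 0.34, SE 0.0591, adjusted p = 0.00043). With the scrambled hairpin it had 2.47, 2.50 and 2.48 RPKM and with knockdown 3.09, 2.56 and 2.99 (0.15, SE 0.0591, adjusted p = 0.0497). Treated libraries were above their controls in both comparisons. The difference between them (0.19, adjusted p = 0.076) passed without overexpression replicate 3 (0.0143) or knockdown replicate 1 (0.0439). The Loxl3 knockdown call was lost without any of the empty-vector replicates 1, 2 and 3 (adjusted p = 0.0603, 0.0633 and 0.0642), overexpression replicate 2 (0.0541), scrambled-hairpin replicates 1, 2 and 3 (0.108, 0.0932 and 0.0963) and knockdown replicates 1 and 3 (0.178 and 0.144). It was also lost with TPM scaling (0.124), without a filter on low values (0.118) and with only the libraries compared (0.0571).

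The described HTRA proteases, Htra2 and Htra3, rose with overexpression and parted with knockdown. Htra3 (chr5:35652023-35679782, minus strand), a secreted serine protease known to bind TGF-beta family proteins, had 9.42, 10.0 and 9.36 RPKM with the empty vector, 14.0, 14.7 and 14.7 under overexpression, 6.43, 6.49 and 6.58 with the scrambled hairpin and 11.98, 11.8 and 12.3 with knockdown. Treated libraries were higher in both comparisons without overlap, by 0.55 (SE 0.0358, adjusted p = 7.39e-08) and 0.79 (SE 0.0358, adjusted p = 3.01e-08) on the log2 scale. The rise with knockdown was the larger of the pair (difference -0.25, adjusted p = 0.00128).

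Htra2 (chr6:83051266-83055273, minus strand), the mitochondrial member, had 28.5, 28.1 and 30.2 RPKM with the empty vector, 37.2, 34.4 and 35.5 under overexpression, 24.9, 26.5 and 24.6 with the scrambled hairpin and 22.1, 21.2 and 21.9 with knockdown. Overexpression libraries were all higher (log2 fold change 0.29, SE 0.0422, adjusted p = 9.23e-05) and knockdown libraries all lower (-0.21, SE 0.0422, adjusted p = 0.00127). Its exons share 535 bases (18.2% of its exon length) with Loxl3 and 753 bases (25.6%) with Aup1, which had a mean of 62.7 RPKM, both on the other strand. The shared bases are 11.6% of the exon length of Loxl3, so values of Htra2 and Loxl3 are uncertain where the counting did not use strand.

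The control groups also differed from each other, and that sets the level from which each response starts. Scrambled-hairpin against empty-vector libraries gave calls for 29 of the 32 genes (90.6%), 10 higher (31.2%) and 19 lower (59.4%) with the scrambled hairpin, where 71.8% of all genes differed, 44.8% higher and 27% lower. With median-ratio scaling 7 were higher and 20 lower, while the whole table split into 3918 higher and 4002 lower. At a ratio of at least 1.5, 3 genes were higher and 12 lower, against 14.9% and 10.2% of all genes. All 7 Mmp genes, 3 of 4 lysyl oxidases and both Htra genes were lower, and 5 of 7 Adam genes were higher with 0 lower. The Adam9 call was lost without empty-vector replicate 1 (adjusted p = 0.0658) or scrambled-hairpin replicate 1 (0.0766). That of Adam19 was lost without empty-vector replicate 1 (0.0556) or 2 (0.157) or scrambled-hairpin replicate 2 (0.101) or 3 (0.0917). That of Adamtsl5, which was lower, was lost without empty-vector replicate 1 (0.143) or 2 (0.0507) or scrambled-hairpin replicate 1 (0.16). With median-ratio scaling Adam9, Adam10 and Adam19 did not pass (0.875, 0.0594 and 0.235) and Adam23 was lower (-0.14, adjusted p = 0.0075), which left 2 Adam genes higher and 1 lower. Adam23 was also lower with non-mitochondrial totals (-0.09, 0.0457), where Adam9 and Adam19 did not pass (0.157 and 0.106). With TPM scaling Htra2 and Adamtsl5 did not pass (0.058 and 0.13). This comparison shares its libraries with the others, so its values are given beside theirs and not related to them, as in the plot of the 3 comparisons.

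**Figure D4:**
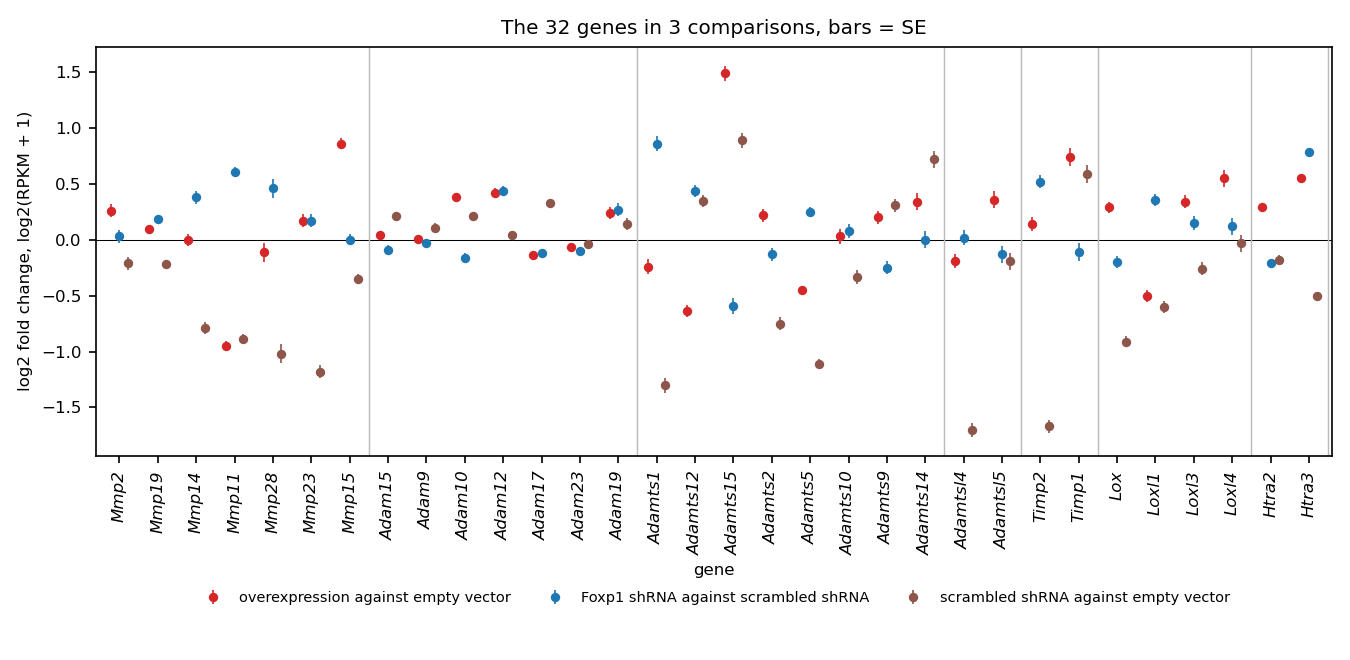
Log2 fold change on the log2(RPKM + 1) scale, with standard errors as bars, of the 32 genes for Foxp1 overexpression and knockdown, each against its control, and for the scrambled hairpin against the empty vector. Differences between the controls reach -1.70 for Adamtsl4 and -1.67 for Timp2, beyond any fold change of these genes with knockdown.

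On the log2(RPKM + 1) scale the 5 largest differences between controls were falls. By ratio of means, Mmp15 (0.318) and the higher Adamts14 (2.67) also stood among the largest. Adamtsl4 had 9.94, 9.91 and 11.1 RPKM with the empty vector and 2.30, 2.61 and 2.53 with the scrambled hairpin (log2 fold change -1.70, SE 0.0645, adjusted p = 3.73e-10). Timp2 stood at 98.6 ± 5.58 and 30.4 ± 1.57 RPKM (-1.67, adjusted p = 2.58e-10), Adamts1 at 59.3 ± 3.602 and 23.4 ± 1.11 (-1.30, adjusted p = 5.1e-09), Mmp23 at 8.80 ± 0.429 and 3.33 ± 0.0574 (-1.18, adjusted p = 3.49e-09) and Adamts5 at 5.43 ± 0.139 and 1.99 ± 0.0358 (-1.11, adjusted p = 2.91e-10). Lox was lower by a log2 fold change of -0.91 and Mmp11 by -0.89. Higher with the scrambled hairpin were Adamts15 (0.89, adjusted p = 1.92e-07), Adamts14 (0.72, adjusted p = 2.94e-06) and Timp1 (0.59, adjusted p = 3.67e-05). None of these pairs of groups overlapped.

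The level of Mmp11 with overexpression (9.46 ± 0.594 RPKM) thus lay beside that with the scrambled hairpin (9.82 ± 0.174), and that of Loxl1 with overexpression (55.9 ± 3.47) beside 52.1 ± 2.17. Timp1 with the scrambled hairpin (16.6 ± 1.37) lay near its level with overexpression (18.5 ± 0.980). Smooth muscle markers moved with the same control difference: 5 markers summed to 48.29 to 54.01 RPKM with the empty vector, 45.58 to 53.9 with overexpression, 13.22 to 15.09 with the scrambled hairpin and 15.74 to 23.88 with knockdown, with 4 of 5 tested. Acta2, smooth muscle actin, had 33.3 ± 2.67, 36.5 ± 4.39, 2.15 ± 0.0223 and 9.48 ± 4.62 RPKM in that order and weighs most in the empty-vector sum. All 4 tested markers were lower with the scrambled hairpin than with the empty vector. With overexpression Des (-0.42) and Tagln (-0.39) fell on the log2 scale, while Acta2 (0.13) and Myh11 (-0.01) were not called. With knockdown Acta2 (1.64) and Tagln (0.17) rose, Des (-0.23) fell and Myh11 (-0.04) was not called. Their part in the differences between controls was not tested, and the vectors, the handling of the cells and the time of the experiments cannot be told apart from the control groups.

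Summed over all 86 genes, levels were 972.3 ± 29.77 RPKM with the empty vector, 1060 ± 17.96 with overexpression, 699.5 ± 10.77 with the scrambled hairpin and 762 ± 20.36 with knockdown. The 4 Timp genes summed to 110 ± 6.327, 128.8 ± 2.962, 47.66 ± 2.872 and 60.01 ± 5.35 RPKM. In both sums each treated group was above its own control in every library. Abundant genes weigh most in them, with Timp2 at 98.6 and Mmp2 at 206 RPKM with the empty vector. The genes did not all rise: with knockdown Timp2 rose (0.52 on the log2 scale), Timp1 (-0.11) and Mmp2 (0.03) were not called, and Lox fell (-0.20).

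Genes that work with these enzymes were followed as lists. Of 20 genes of the plasminogen and cathepsin system 12 were tested, and 8 rose and 2 fell with overexpression, while 4 rose and 4 fell with knockdown. Among those that rose with knockdown, Plaur passed the filter through its knockdown libraries alone (1.477, 1.073 and 1.483 RPKM). Its rise was therefore fixed in part by the filter. For this and the following lists, the shares of all genes tested were 31% up and 20.3% down with overexpression and 18.7% up and 31% down with knockdown. With median-ratio scaling 1 gene of that list fell with knockdown, and without scrambled-hairpin replicate 2 or without knockdown replicate 2 the number was 2. Cathepsin L (Ctsl) fell with overexpression from 113 ± 4.18 to 66.5 ± 8.66 RPKM (-0.77, adjusted p = 1.94e-06) and cathepsin D (Ctsd) rose from 333 ± 11.1 to 444 ± 14.96 (0.41, adjusted p = 2.62e-06). With knockdown, the collagen-cutting cathepsin K (Ctsk) rose by 0.65 on the log2 scale (adjusted p = 3.48e-06) and the secreted serine protease Prss23 by 0.75 (adjusted p = 1.02e-05), and both also rose with overexpression (0.38, adjusted p = 0.000154, and 0.30, adjusted p = 0.0063).

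Of 9 procollagen proteinases, their enhancers and proprotein convertases 5 were tested, with 4 up and 1 down in overexpression and 3 up and 1 down in knockdown, against 31% up and 20.3% down, and 18.7% up and 31% down, of all genes. Furin, the convertase that activates MMP11, MMP14 and many ADAM proteases, rose with overexpression from 11.98 ± 0.153 to 14.6 ± 0.384 RPKM (0.27, adjusted p = 3.06e-05) and fell with knockdown from 18.3 ± 0.425 to 14.1 ± 0.346 (-0.35, adjusted p = 7.22e-06). Of the procollagen C-proteinase enhancers, Pcolce rose by 0.70 (adjusted p = 8.16e-07) with overexpression, where Pcolce2 fell by 0.36 (adjusted p = 3.54e-05). With knockdown both rose, by 0.18 (adjusted p = 0.0262) and 0.54 (adjusted p = 2.59e-06), but for Pcolce the knockdown and scrambled-hairpin libraries overlapped. Bmp1, the C-proteinase itself, rose by 0.45 (adjusted p = 7.55e-05) with overexpression and by 0.26 (adjusted p = 0.00526) with knockdown.

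Of 9 partners of ADAM10 and ADAM17 6 were tested, with 3 up and 1 down in overexpression and 2 up and 3 down in knockdown, against 31% up and 20.3% down, and 18.7% up and 31% down, of all genes. Tspan5, a tetraspanin that carries ADAM10 to the cell surface, had 1.73, 1.74 and 1.86 RPKM with the empty vector and 2.105, 2.19 and 2.35 with overexpression (0.21, adjusted p = 0.00124), and 2.71, 2.82 and 2.85 with the scrambled hairpin and 1.71, 1.79 and 1.82 with knockdown (-0.45, adjusted p = 5.66e-06). Like Adam10, it was called up and then down. Tspan17, another such tetraspanin, fell with overexpression from 30.7 ± 1.48 to 19.8 ± 1.64 RPKM (-0.61, adjusted p = 4.61e-06). Of the iRhoms that carry ADAM17, Rhbdf1 rose by 0.16 (adjusted p = 0.00683) and 0.29 (adjusted p = 0.000151), and Rhbdf2 rose with overexpression by 0.14 (adjusted p = 0.0148) and fell with knockdown by 0.42 on the log2 scale (adjusted p = 9.4e-06). The list's upward count in overexpression was 1 with TPM scaling, and its downward count was 2 with median-ratio scaling.

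Of 18 collagen hydroxylases and elastic-fibre genes 14 were tested, with 8 up and 2 down in overexpression and 3 up and 4 down in knockdown, against 31% up and 20.3% down, and 18.7% up and 31% down, of all genes. The knockdown counts lie near those shares. Tgm2, a transglutaminase that crosslinks matrix proteins, rose with overexpression from 3.62 ± 0.197 to 10.2 ± 0.512 RPKM (1.28, adjusted p = 1.7e-09) and fell with knockdown from 4.63 ± 0.121 to 3.24 ± 0.295 (-0.41, adjusted p = 7.13e-05). P4ha1 and P4ha2, prolyl hydroxylases of collagen, rose with overexpression by 0.91 (adjusted p = 1.15e-08) and 0.85 (adjusted p = 5.47e-08) and fell with knockdown (-0.30 and -0.30, adjusted p = 0.000266 and 0.000727). With knockdown, the lysyl hydroxylase Plod1 fell by 0.33 (adjusted p = 1.71e-05) and fibrillin-1 (Fbn1) rose by 0.50 (adjusted p = 2e-05), as it did with overexpression (0.29, adjusted p = 0.000906). The downward count in overexpression was 1 without any of the empty-vector replicates 1, 2 and 3 or without overexpression replicate 3.

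Of 22 matrix proteins that these proteases cut, 19 were tested, with 8 up and 6 down in overexpression and 4 up and 6 down in knockdown, against 31% up and 20.3% down, and 18.7% up and 31% down, of all genes. The knockdown counts lie near those shares. With median-ratio scaling 8 rose with knockdown. Fibronectin (Fn1) had 49.0, 46.8 and 46.5 RPKM with the empty vector and 82.0, 94.6 and 80.8 with overexpression (0.84, adjusted p = 5.27e-07), and 59.6, 64.8 and 59.4 with the scrambled hairpin and 40.8, 47.2 and 41.5 with knockdown (-0.50, adjusted p = 8.38e-05). Decorin (Dcn), a small proteoglycan on collagen fibrils, fell with overexpression from 27.7 ± 2.04 to 7.99 ± 0.382 RPKM (-1.67, adjusted p = 1.24e-09), and the laminin chain Lama4 from 24.8 ± 0.428 to 14.9 ± 1.43 (-0.70, adjusted p = 1.78e-06). With knockdown Dcn rose (0.35, adjusted p = 0.00112) and Lama4 fell (-0.22, adjusted p = 0.0131). Versican (Vcan), a substrate of ADAMTS1, ADAMTS5 and ADAMTS15, rose with knockdown by 0.43 (adjusted p = 4.88e-05), and the collagen VI chain Col6a2 by 0.37 (adjusted p = 2.95e-05). With overexpression Vcan fell (-0.27, adjusted p = 0.0012) and Col6a2 rose (0.20, adjusted p = 0.00204). The plot of partners and substrates shows tested genes of the lists in both comparisons, leaving out 1 gene of the plasminogen and cathepsin list.

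**Figure D5:**
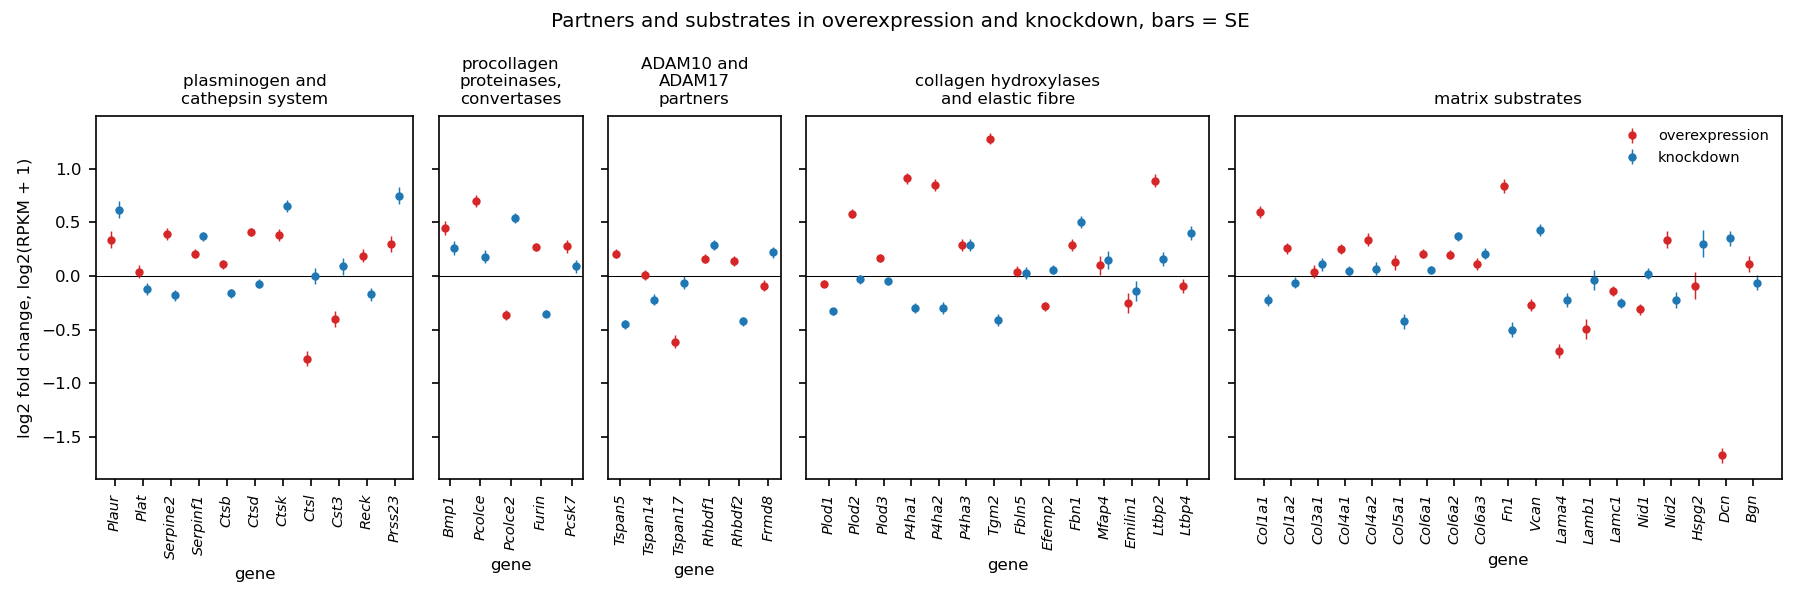
Log2 fold change on the log2(RPKM + 1) scale with standard errors as bars, with overexpression and with knockdown, for tested genes of 5 lists of partners and substrates. Tgm2 (1.28 and -0.41) and Fn1 (0.84 and -0.50) lie on opposite sides of 0, and Dcn is lowest at -1.67 with overexpression.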

How the data were processed

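RNA from 12 libraries of 3T3-L1 adipocytes was sequenced, 3 in each of 4 groups. The authors deposited 1 matrix of RPKM values divided by 1000, which were multiplied by 1000 here. HISAT2 2.1.0, featureCounts, Subread 1.5.3 and mm10 are named per the submitters' processing notes, and their roles, strand setting and treatment of reads with several matches are not given in the sources used here. Ensembl identifiers were matched to symbols with the GRCm38 annotation of Ensembl release 98 (28896 of 28948). Whole reads were recovered from the steps between values (98.83% to 98.93% whole within 0.05 of a read) for depth and for 1 alternative.

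The 11245 genes that reached 1 RPKM in 3 or more libraries were fitted with limma 3.58.1 in R 4.3.3 on log2(RPKM + 1), in 1 model of the 4 groups with a mean trend. Each Foxp1 manipulation was compared with its own control, the responses with each other, and the controls with each other. The threshold was a Benjamini-Hochberg adjusted p under 0.05. The method was also run on simulated data with known changes, and that outcome is not given here. TPM scaling rescaled the libraries to equal sums of RPKM. Alternatives changed the pseudocount, the filter, the scaling, the libraries fitted, the replicate block and each library in turn. Scaling to non-mitochondrial reads and a voom fit of recovered reads were chosen after seeing the data.

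Members and lists were chosen with earlier results of these data known. Named were genes listed by role, the 10 largest changes in each comparison, all called in both, those called in neither, and up to 3 genes by smallest p of each related list. The other described genes, low genes beyond the highest 3, and Plaur were named after their values were seen. Promoter sequences are from RefSeq (GRCm38.p6), and none was used for Lox. The values of 1 gene of the plasminogen and cathepsin list are not reported here, though the counts of that list include it.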

Additional observations from a re-analysis of the deposited data

How the results depend on the processing

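Of the calls on the 32 genes, 19 of 25 with overexpression, 16 of 21 with knockdown, 19 of 21 for the difference and 24 of 29 between controls held under each alternative that tested the gene, and 0 changed direction. The stricter filter tested 24 of the 32, and the difference was not fitted with only the libraries compared. A stricter filter of 5 RPKM in 3 or more libraries left fewer genes to test: 11 rose with overexpression, 7 passed upward for the difference, and of the related lists the plasminogen and cathepsin system had 5 up with overexpression and 2 down with knockdown, procollagen proteinases 0 down with overexpression, and hydroxylases and elastic fibre 1 up with knockdown. Median-ratio scaling gave 4 genes down with knockdown, 1 plasminogen or cathepsin gene down and 8 matrix substrates up with knockdown, and 2 ADAM partners down with overexpression. TPM scaling gave 1 ADAM partner up with overexpression. Hydroxylases and elastic fibre had 1 down with overexpression without a filter and with only the libraries compared. Apart from the filters and the smaller fit, the cause was not tested. Leaving out 1 library gave 22 to 26 calls with overexpression, 17 to 23 with knockdown, 20 to 24 for the difference and 26 to 29 between controls, and 2 to 4 plasminogen or cathepsin genes down with knockdown and 1 to 2 hydroxylase or elastic fibre genes down with overexpression.

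The labels state no pairing of replicates, so the main fit held none. Deviations of same-numbered libraries from their group means had correlations of -0.0132, 0.118 and 0.0806 for overexpression and -0.0727, 0.0492 and -0.0595 for knockdown. Those of differently numbered libraries ran from -0.141 to 0.0717 and from -0.189 to 0.237. With the replicate block, 25 genes were called with overexpression, 21 with knockdown, 22 for the difference and 28 between controls. Adamtsl4 was gained for the difference (adjusted p = 0.0461) and Adamtsl5 lost between controls (0.0551). Depth limited Mmp15 most, with 23 to 340 reads a library.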
